A study of Mus musculus with 4 samples.

Results

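Esrra, Esrrb and Esrrg (estrogen-related receptors), Ppara, Ppard and Pparg (peroxisome proliferator-activated receptors), their partner Rxra, and the coactivators Ppargc1a and Ppargc1b regulate energy metabolism, and these 9 genes are described here through the peaks of H3K27ac in mouse heart. The members were chosen by name, and their peaks are those of the authors' replicated list that touch the gene or the 50 kb to either side of it, which gave 188 of the 63061 peaks of that list. The genes are 9 of 21938 protein-coding genes of GENCODE M21 on mm10. H3K27ac, an acetylation of histone H3, marks active promoters and enhancers, and chromatin immunoprecipitation with sequencing finds the stretches of DNA that carry it. Heart tissue came from female B6CASTF1/J mice, the hybrid of C57BL/6J and CAST/EiJ, aged 2 months. The single group holds 4 libraries from 2 biological replicates, each with 2 technical replicates and each made from pooled tissue of 2 heart biosamples. Both pools carry the same donor identifier, so their differences may be technical, and there is no second condition to compare with.

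Estrogen-related receptors are orphan nuclear receptors that bind an extended half-site and drive genes of mitochondrial respiration. Peroxisome proliferator-activated receptors are activated by lipids, pair with a retinoid X receptor on repeated half-sites, and drive the uptake and oxidation of fatty acids, the main fuel of the adult heart. The PGC-1 coactivators bind no DNA themselves and are recruited by these receptors and by other factors, so they set how strongly the same targets are used.

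Sequences in the regulators' own peaks are shown first, for the elements that these factors are known to use. The letters TCAAGGTCA, which the estrogen-related receptors bind and which contain the half-site AGGTCA, were searched on both strands of the 500 bp around each deposited summit. They stood in that window of 4 of the 188 peaks (2.13%, 95% exact binomial interval 0.583 to 5.36), beside 1.46% of all 63061 peaks, so these letters were about as rare here as in the whole list. The matches at Esrra, Esrrg and Ppara are shown on the plus strand of mm10 (GRCm38.p6) with the matched letters in capitals, and the Esrra stretch ends where an annotated exon of Catsperz begins. The Esrra stretch, at chr19:6922277-6922370, lies before the gene's 5' end, the Esrrg stretch, at chr1:187911292-187911420, lies in an intron, and the Ppara stretch, at chr15:85716587-85716715, lies upstream of the gene.
Esrra: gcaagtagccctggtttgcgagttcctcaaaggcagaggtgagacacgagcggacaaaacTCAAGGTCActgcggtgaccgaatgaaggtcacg
Esrrg: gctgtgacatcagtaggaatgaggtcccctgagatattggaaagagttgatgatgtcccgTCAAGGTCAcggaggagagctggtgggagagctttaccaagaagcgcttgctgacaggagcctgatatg
Ppara: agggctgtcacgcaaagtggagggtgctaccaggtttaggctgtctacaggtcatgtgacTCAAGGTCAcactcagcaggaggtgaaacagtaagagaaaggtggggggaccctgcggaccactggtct

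The peak around the Esrra match was 1106 bp wide with a fold of 15.7, and the match stood 524 bp upstream of the 5' end. The peak around the Esrrg match was 1555 bp wide with a fold of 9.86, and the match stood 303 kb inside the gene. The peak around the Ppara match was weaker, 1088 bp wide with a fold of 3.79, and lay 18.3 kb upstream. All 3 of these peaks overlapped a peak in the list of either biological replicate. The fourth match stood by a narrow peak of 217 bp with a fold of 3.6, 16.5 kb upstream of Ppargc1b, that replicate 2 also had and replicate 1 lacked. The fold is the authors' value for each peak, read as enrichment over a control, and is used here only to describe and rank peaks within a list.

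The inner group of starts of Ppargc1a, which gives the classical form of the coactivator, holds the letters TGACGTCA, the cyclic AMP response element through which hormones and fasting are known to raise the gene. The letters lie 83 bp before the first start of that group, Ppargc1a-203, in a stretch at chr5:51553923-51554122, shown on the minus strand with the element in capitals. The same letters stood in the 300 bp at the start (250 before to 50 after) of 2.43% of 21931 protein-coding genes and, among the 50 distinct annotated starts of the 9 genes, in the 3 starts of that group, which share the same copy. A match to the MEF2 letters, the motif of a muscle transcription factor known to act on Ppargc1a, lies 1.06 kb inside the gene from its outer start. It stands in the stretch at chr5:51566614-51566723, again shown on the minus strand, in a peak of 1010 bp with a fold of 4.08. The search allowed any base in the core of the MEF2 letters, so counts of MEF2 matches may include looser matches than the consensus. The core of the match shown is all A.
Ppargc1a inner start: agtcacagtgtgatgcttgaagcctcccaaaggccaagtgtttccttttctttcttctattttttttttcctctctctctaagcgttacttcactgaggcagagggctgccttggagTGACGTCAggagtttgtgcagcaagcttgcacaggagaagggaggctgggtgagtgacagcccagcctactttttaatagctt
Ppargc1a outer intron: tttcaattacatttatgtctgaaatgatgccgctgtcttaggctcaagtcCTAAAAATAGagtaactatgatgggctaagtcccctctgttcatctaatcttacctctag

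Starts of the 9 genes also differed in CpG, and 120 bp before 5 of them are shown on the strand of the gene with every CpG in capitals. They are the first starts of Pparg (chr6:115360831-115360950, plus strand), Ppard (chr17:28232580-28232699, plus), Ppargc1a (chr5:51567727-51567846, minus) and Esrrb (chr12:86360997-86361116, plus), and the start of the transcript Pparg-201 (chr6:115421946-115422065, plus), which encodes the longer, adipocyte form of the receptor.
Pparg first start: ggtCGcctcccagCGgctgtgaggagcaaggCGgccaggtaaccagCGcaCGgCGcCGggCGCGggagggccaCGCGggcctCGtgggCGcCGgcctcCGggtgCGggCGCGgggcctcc
Ppard first start: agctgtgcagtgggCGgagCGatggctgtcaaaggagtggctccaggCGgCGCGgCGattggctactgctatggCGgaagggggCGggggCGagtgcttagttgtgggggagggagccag
Ppargc1a first start: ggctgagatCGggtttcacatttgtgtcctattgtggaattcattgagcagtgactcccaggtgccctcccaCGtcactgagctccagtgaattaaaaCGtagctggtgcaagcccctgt
Esrrb first start: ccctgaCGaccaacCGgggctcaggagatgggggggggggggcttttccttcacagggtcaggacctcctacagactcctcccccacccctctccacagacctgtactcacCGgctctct
Pparg-201 start: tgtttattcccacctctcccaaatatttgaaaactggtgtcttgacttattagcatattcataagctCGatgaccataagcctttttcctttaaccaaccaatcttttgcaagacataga

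The stretch before the first start of Pparg holds 18 CpGs and that of Ppard 9, whereas those of Ppargc1a and Esrrb hold 3 each and that of Pparg-201 holds 1. Every one of these 5 starts had a peak within 1 kb.

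All 9 genes had a promoter peak, meaning a peak no more than 1 kb from a transcription start site (TSS) in the annotation, beside 56.8% of all 21938 protein-coding genes. All 9 also had a peak within 1 kb of the 5' end of the gene, beside 53.3% of all genes. Of the 50 distinct TSSs of the 9 genes, 41 had a peak within 1 kb (82.0%, interval 68.6 to 91.4), beside 50.7% of the 93513 TSSs of protein-coding genes, and 34 lay under a peak. Intervals here and below count starts or peaks only, since the number of reads is unknown. Starts of the same gene often lie at the same peak, so they are not independent and the interval for starts is too narrow. The 31 TSSs within 10 kb of a 5' end all had a peak, and of the 19 TSSs farther inside a gene 10 had one. Those 31 all lay within 1.4 kb of a 5' end, so they largely repeat the count of 5' ends with a peak. The same split was not made over all genes. The 9 TSSs without a peak were in Esrrb, Ppara, Ppard, Pparg and Rxra, each over 30 kb inside the gene. A start without a peak is common in genes with a promoter peak, since 66.9% of the 11156 protein-coding genes with at least 2 TSSs and a promoter peak also had a TSS without one.

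**Figure D1:**
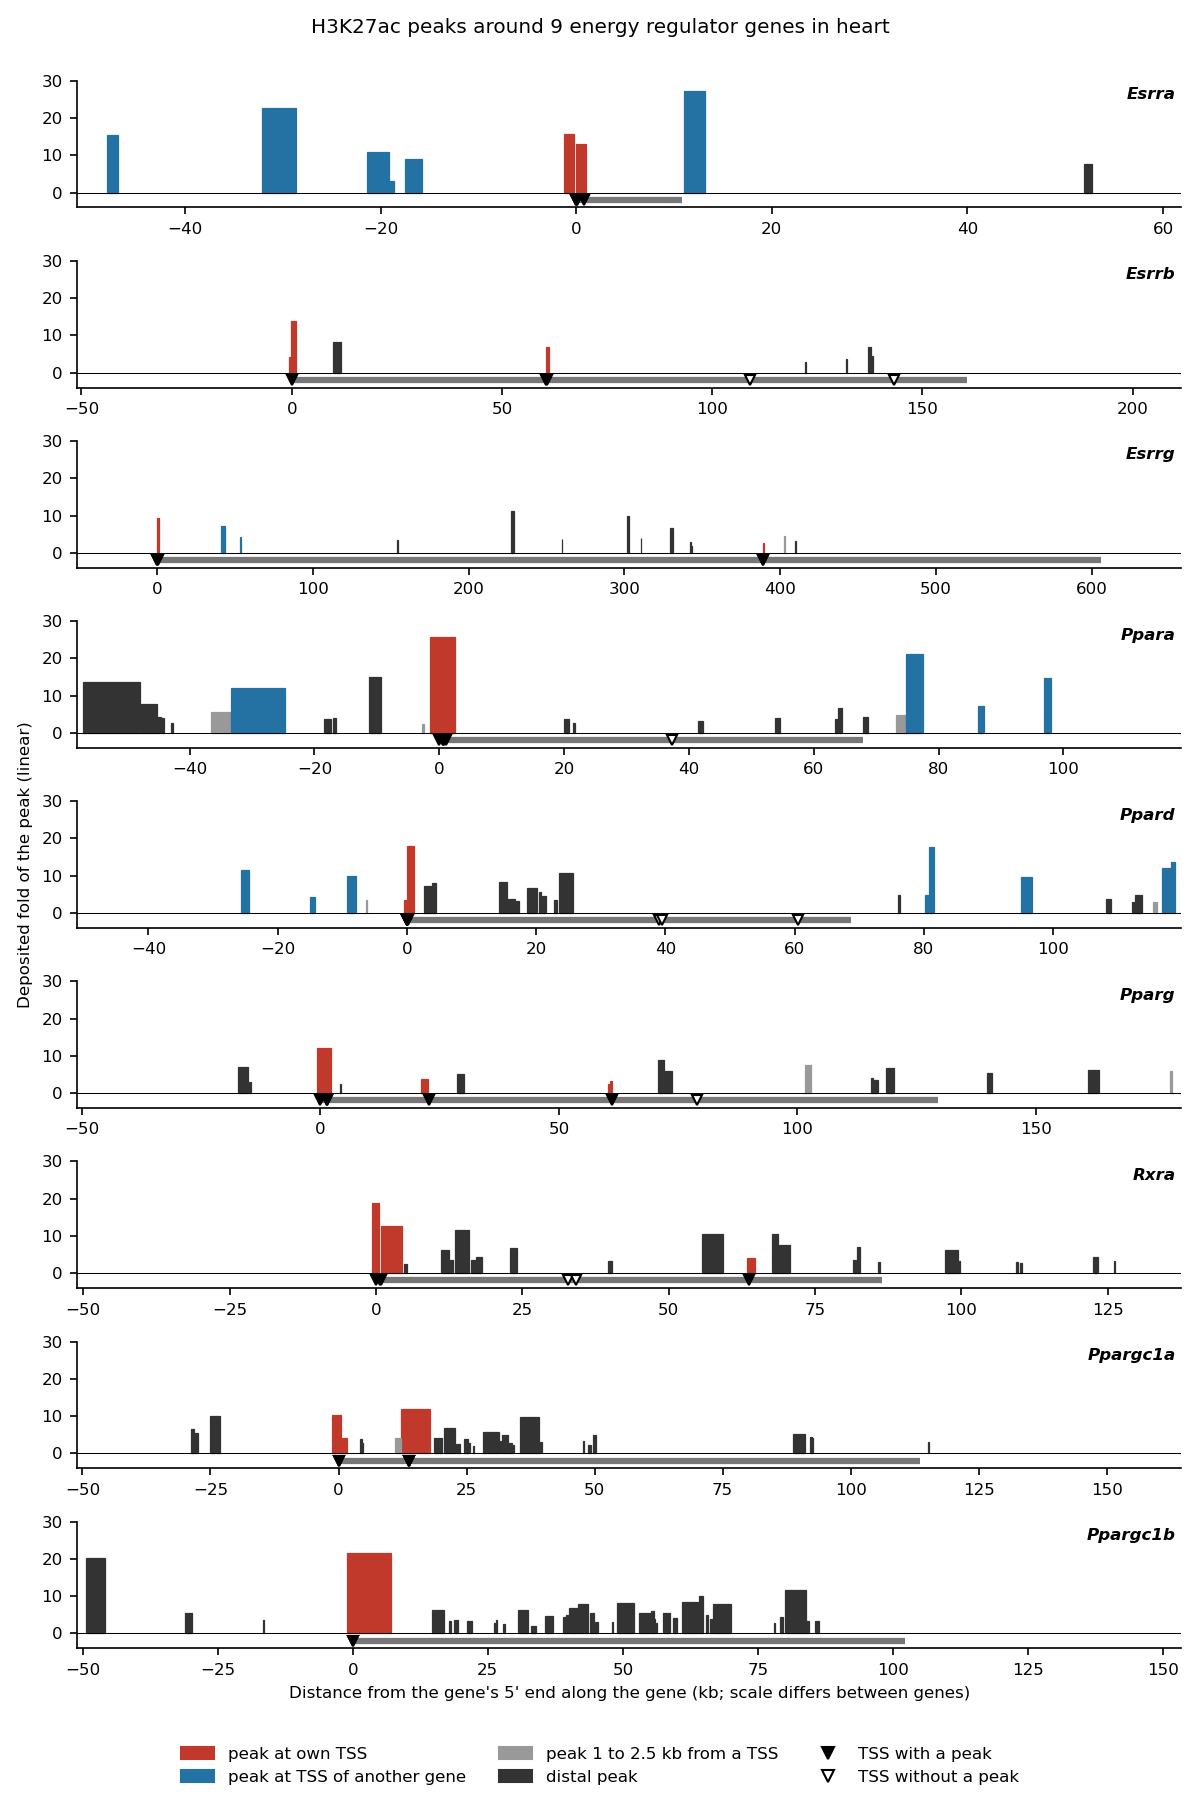
Peaks of the replicated list around the 9 genes, by distance from the 5' end along the gene in kb (the scale differs between genes) and by the deposited fold on a linear axis, with the gene as a grey bar and its TSSs as triangles, filled where a peak lies within 1 kb. Esrrg is bare on either side of the gene, Ppara is covered mostly upstream, and the introns of Ppargc1b are covered by many peaks.

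Acetylated length, the summed length of peaks inside the gene and its 50 kb flanks, had a median of 22.3 kb over the 9 genes, from 5.88 kb at Esrrb to 50.5 kb at Ppargc1b. Over all protein-coding genes the median was 4.32 kb, with quartiles of 0.74 and 10.6 kb and a 95th percentile of 24.2 kb. All 9 genes were above the median of all genes, and 4 of them, Rxra, Ppargc1a, Ppara and Ppargc1b, were above its 95th percentile. Long genes have long windows, so the share of the window is given too. Its median was 13.2% over the 9 genes and 3.14% over all genes. By this share 2 of the 9 lay above the 95th percentile of 18.3%, namely Ppara with 21.5% and Ppargc1b with 24.9%. Esrrb with 2.26% and Esrrg with 1.95% lay below the median of all genes. In this tissue of several cell types, fewer cells with a mark and less of it per cell cannot be told apart.

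In the order of acetylated length from Esrrb through Esrrg, Esrra, Pparg, Ppard, Rxra, Ppargc1a and Ppara to Ppargc1b, the ranges between the lists of the biological replicates overlapped for neighbours except at either end. Esrrb had 4.7 kb in replicate 1 and 8.95 kb in replicate 2, and Esrrg, the next, had 10.7 and 18 kb. Ppargc1b had 40.2 and 59.9 kb, above the 30.8 and 39.4 kb of Ppara. Every gene was longer in replicate 2, by a ratio of 1.28 at Ppara to 1.9 at Esrrb. Over the 9 genes the covered length in replicate 2 was 1.48 times that in replicate 1, and over the whole lists 1.49 times, so the ratio of the members was close to that of the lists.

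**Figure D2:**
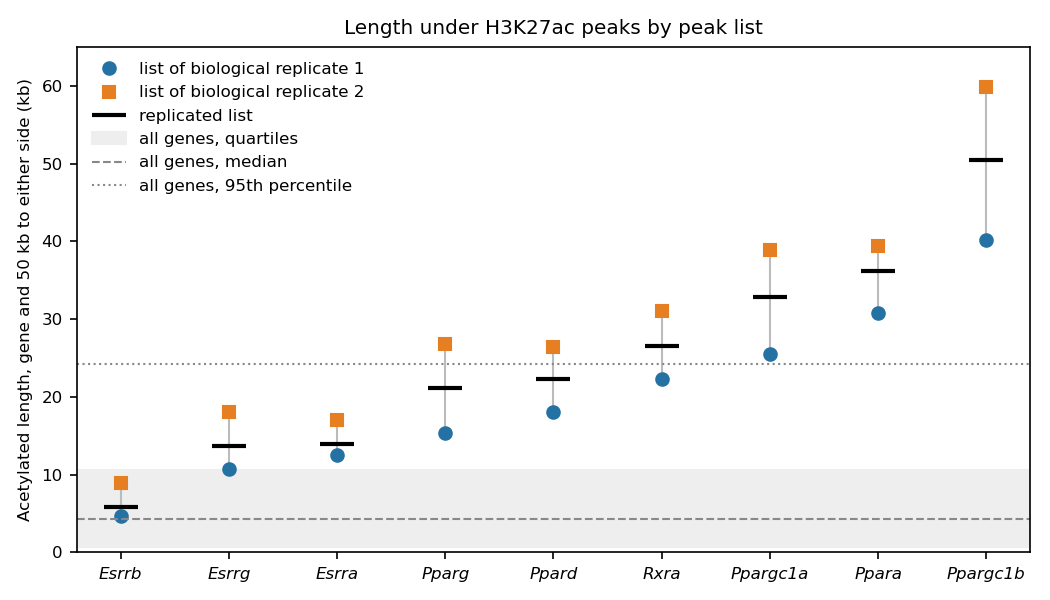
Acetylated length in kb of each gene with 50 kb to either side, in the lists of biological replicates 1 and 2 and in the replicated list (black bar), over the quartiles (0.74 and 10.6 kb), median (4.32 kb) and 95th percentile (24.2 kb) of all protein-coding genes. Every gene has more length in replicate 2, and Ppargc1b lies above all the others in either replicate.

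The 188 peaks were 798 bp wide at the median, with a median fold of 4.66, beside 693 bp and 4.55 over the whole list. Most of them, 138 (73.4%), were distal, over 2.5 kb from any TSS. Of the rest, 21 were at a TSS of the gene itself and 20 at a TSS of another gene. The last 9 lay between 1 and 2.5 kb from a TSS. In the whole list 37273 of the 63061 peaks were distal and 20563 lay within 1 kb of a TSS, as 41 of the 188 did. Introns held the summits of 121 of the 188 peaks. A peak of both replicate lists overlapped 143 of the 188 (76.1%, interval 69.3 to 82.0), beside 73.0% of all peaks. Another 8 (4.26%) were in neither list, beside 5.86% of all peaks. Of the 21 peaks at the genes' own TSSs 18 were in both lists, and of the 138 distal peaks 100 were. The peaks in both lists were the broad and strong ones, with a median width of 1090 bp and fold of 6.07, beside 339 bp and 3.03 for the rest.

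**Figure D3:**
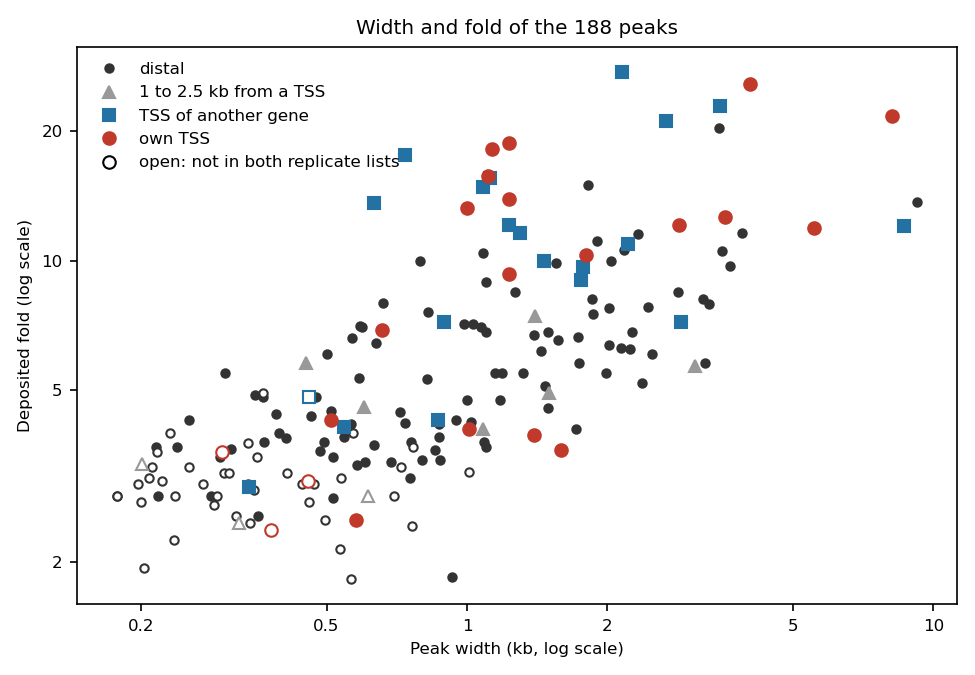
Width in kb and deposited fold of the 188 peaks, both on log scales, by their place relative to TSSs, with open symbols for peaks that are not in both replicate lists. Widths run from 178 to 9222 bp and folds from 1.83 to 27.3, and the open symbols lie among the narrow peaks of low fold.

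Esrra, the estrogen-related receptor of broadest use in oxidative tissues, lies at chr19:6910977-6921813 on the minus strand and is short, 10.8 kb. All 5 of its TSSs lay under a peak. A peak of 999 bp with a fold of 13.2 covered the starts, and the peak of 1106 bp with the element shown above stood upstream, with a break of 178 bp between them that begins 7 bp before the outermost start, Esrra-204. The first of these was 932 bp wide in replicate 1 and 1951 bp in replicate 2. Away from its promoter Esrra had little of its own. Of its 9 peaks 6 lay at TSSs of neighbours, Prdx5 with Trmt112, Gpr137, Bad and Plcb3, and the strongest, with a fold of 27.3, was at Prdx5 and Trmt112. Its 14.0 kb of acetylated length came down to 2.93 kb without peaks at other genes' TSSs, and only 0.993 kb lay inside the gene. All 9 peaks overlapped a peak in both replicate lists.

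Esrrb, a receptor best known from stem cells and the inner ear, lies at chr12:86361117-86521628 on the plus strand, with 161 kb. It had the least acetylated length of the 9, 5.88 kb in 8 peaks, at the 58.2nd percentile of all genes, and 2.26% of its window. Its outermost start, Esrrb-204, lay under a peak of 1227 bp with a fold of 13.9, and a peak of 657 bp with a fold of 6.92 covered the starts of Esrrb-202, Esrrb-203 and Esrrb-201, 60.5 and 60.8 kb inside. Replicate 1 covered 346 bp of that inner peak and replicate 2 all 657 bp. The starts of Esrrb-206 at 109 kb and Esrrb-205 at 143 kb had no peak within 1 kb, and the nearest lay 13.1 and 4.98 kb away. The longest stretch of the gene without a peak was 61.0 kb. All 8 peaks were in both replicate lists.

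Esrrg, the receptor prominent in heart and slow muscle, is the longest of the 9, 606 kb at chr1:187608791-188214885 on the plus strand. No peak lay in the 50 kb before or after it, and its 14 peaks covered 13.7 kb, or 1.95% of the window. A peak of 1230 bp with a fold of 9.29 lay at the first starts, covering Esrrg-203 and Esrrg-205 and beginning 138 bp after Esrrg-204. The starts of Esrrg-201 and Esrrg-202, 389 kb inside the gene, stood 42 and 1 bp from a narrow peak of 577 bp with a fold of 2.5. The strongest peak of the gene was in an intron, 228 kb from the 5' end, with 1896 bp and a fold of 11.1. Replicate 1 covered 1583 bp of it, though no single peak reached 50% reciprocal overlap, and replicate 2 covered all of it. A second intron peak of 1555 bp and fold 9.86, at 302 kb, holds the element shown above. Peaks at the starts of the predicted genes Gm36388 and Gm37929 lay inside the gene too, and 196 kb of its 3' part had no peak.

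Ppara, the lipid-activated receptor that drives fatty acid oxidation in heart and liver, lies at chr15:85734983-85802819 on the plus strand, 67.8 kb. It had the second longest acetylated length, 36.2 kb in 23 peaks, at the 98.6th percentile of all genes. Its promoter peak was 4048 bp wide with a fold of 25.7, the highest of any promoter peak of the 9 genes. It covered the TSSs of Ppara-204, Ppara-203, Ppara-206, Ppara-202 and Ppara-201, and replicate 1 covered 3555 bp of it and replicate 2 all of it. No single peak of replicate 1 reached 50% reciprocal overlap with it. The start of Ppara-205, 37.2 kb inside the gene, had no peak within 1 kb, and the nearest was 4295 bp away.

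Most of the acetylation of Ppara lay before the gene. Peaks covered 23.0 kb (45.9%) of the 50 kb upstream, beside 6.2 kb inside the gene and 7.01 kb downstream. The widest upstream peak, 9222 bp with a fold of 13.7, had its summit 55.3 kb before the 5' end and reached out of the window. The next, 8665 bp with a fold of 12, covers starts of the non-coding RNA Lncppara and of the let-7 genes Mirlet7b and Mirlet7c-2. Replicate 1 covered 8722 and 8025 bp of these peaks, and replicate 2 all of both. For the wider, no single peak of either replicate list reached 50% reciprocal overlap, so its extent differed between the lists. A peak 10.2 kb upstream was narrower, 1825 bp, with a fold of 15.0. Downstream, Cdpf1 with a fold of 21.1, Pkdrej and Ttc38 have peaks at their own starts. Without peaks at other genes' TSSs Ppara kept 22.9 kb. Its place among the 9 depended on the window, the fifth with 20 kb to either side, the second with 50 kb and the first with 100 kb, where it held 70.4 kb.

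Ppard, the most widely expressed of these lipid-activated receptors, lies at chr17:28232700-28301474 on the plus strand, 68.8 kb, with 22.3 kb of acetylated length in 26 peaks. A peak of 1128 bp with a fold of 18.1, 1091 bp of it covered in replicate 1 and all in replicate 2, lay at 6 of its 9 TSSs, those of Ppard-201, Ppard-207, Ppard-202, Ppard-209, Ppard-205 and Ppard-203. A small peak of 298 bp with a fold of 3.60 lay upstream beyond a break of 207 bp, and Ppard-201 starts inside that break. The TSSs of Ppard-204 and Ppard-206, 39.0 and 39.4 kb inside, and Ppard-208, at 60.5 kb, had none. Behind the promoter, 10 intron peaks stood between 3.43 and 24.3 kb, the last with 2167 bp and a fold of 10.6, and then 43.1 kb to the 3' end had none. The window held 8 peaks at starts of neighbours, among them Def6, Fance, Rpl10a and Tead3, and without them 13.9 kb remained.

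Pparg, the receptor that governs fat cell formation, lies at chr6:115360951-115490399 on the plus strand, 129 kb, with 21.1 kb of acetylated length in 18 peaks. The first group of starts, Pparg-202, Pparg-204, Pparg-206 and Pparg-203, lay under a peak of 2845 bp with a fold of 12.1, found over 2357 bp in replicate 1 and in full in replicate 2. The start of Pparg-207, 22.7 kb inside, stood 107 bp from a peak of 1594 bp with a fold of 3.63. The start of Pparg-201, the adipocyte form, at 61.1 kb, lay under a peak of 456 bp with a fold of 3.09 that replicate 2 also had and replicate 1 lacked. The start of Pparg-205 at 79.0 kb had no peak within 1 kb. Of the adipocyte markers Adipoq, Plin1, Cidec and Cfd, 0 of 4 had a promoter peak, beside 56.8% of all protein-coding genes. Their windows were not bare, with a median acetylated length of 7.93 kb (2.59 to 15.7 kb), beside 4.32 kb over all genes. The strongest Pparg peak away from the promoter, 1100 bp with a fold of 8.90, stood in an intron 71.6 kb from the 5' end. The GATA letters AGATAA, which GATA factors of the heart bind, stood within 500 bp around the summit in 12 of the 18 Pparg peaks, in 29 of the 170 other peaks, and in 21.3% of all peaks of the list. This motif was singled out for Pparg after its values were seen.

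Rxra, the obligate partner of the lipid-activated receptors, lies at chr2:27676440-27762957 on the plus strand, 86.5 kb, with 26.6 kb of acetylated length in 23 peaks, 21.9 kb of it inside the gene. A peak of 1230 bp with a fold of 18.7 covered the start of Rxra-204, and a peak of 3584 bp with a fold of 12.6 followed after a break of 283 bp. The starts of Rxra-201 and Rxra-206 lay in that break, 127 and 66 bp from the second peak. Replicate 1 covered 1180 and 3556 bp of these peaks, and replicate 2 all of both. A further start with a peak, Rxra-205 at 63.8 kb, lay under 1393 bp with a fold of 3.94. The starts of Rxra-202 and Rxra-203, 32.9 and 34.1 kb inside, had no peak in the replicated list, and replicate 2 alone had a peak of 670 bp near the latter. Broad intron peaks stood 14.7 kb (2328 bp, fold 11.5) and 58.2 kb (3518 bp, fold 10.5) from the 5' end.

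Ppargc1a, the inducible coactivator of mitochondrial biogenesis, lies at chr5:51454250-51567726 on the minus strand, 113 kb, with 32.9 kb of acetylated length in 29 peaks, at the 98.1st percentile of all genes. All 5 of its TSSs lay under peaks, in 2 groups that are known as the alternative and the classical promoter. The outer group, Ppargc1a-202 and Ppargc1a-204, was under a peak of 1796 bp with a fold of 10.3, covered over 1791 bp in replicate 1 and in full in replicate 2. The inner group, Ppargc1a-203, Ppargc1a-205 and Ppargc1a-201, 13.8 to 13.9 kb inside, was under a peak of 5541 bp with a fold of 11.9, of which replicate 1 covered 5348 bp and replicate 2 all. The inner peak was the wider, and the folds were close. Intron peaks followed up to 50.1 kb and stood again from 90 to 92.6 kb, the strongest of 3665 bp with a fold of 9.71 at 37.8 kb, and another stood upstream at 24.2 kb, 2037 bp with a fold of 10. MEF2 matches stood in 6 of the 29 peaks, beside 8.75% of all peaks, and the half-site in 4 of 29, beside 30%. These were the highest MEF2 share and the lowest half-site share of the 9 genes, named here with the values known. Over all 188 peaks the MEF2 share was 12.2%, and its interval of 7.92 to 17.8 held the 8.75% of the whole list.

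Ppargc1b, the closest relative of Ppargc1a, lies at chr18:61298136-61400431 on the minus strand, 102 kb, and had the most acetylated length, 50.5 kb in 38 peaks, at the 99.6th percentile of all genes. Inside the gene peaks covered 44.4 kb, or 43.4% of it. Its 2 TSSs, of Ppargc1b-202 and of Ppargc1b-201 with Ppargc1b-203, lay under a peak of 8160 bp with a fold of 21.6 that also holds the start of the intronic microRNA Mir378a. The extent of that peak differed between the replicates. Replicate 2 had a single peak of 8783 bp at the start, and replicate 1 a peak of 1887 bp, although its peaks together covered 6535 bp of the replicated one. The second strongest peak, 3472 bp with a fold of 20.3, stood 47.9 kb upstream at the edge of the window, with 3413 bp covered in replicate 1 and all of it in replicate 2. Of the 38 peaks 29 were in both lists.

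The CpG content of the starts differed between the genes. The observed over expected CpG ratio of the 300 bp at a start had a median of 0.729 over the 41 TSSs with a peak and 0.208 over the 9 without, beside 0.751 and 0.226 for the 5' ends of all protein-coding genes with and without a peak. The medians of the members' starts were close to those of all genes. A ratio over 0.6 stood at 61.0% of the 41 TSSs with a peak, beside 69.8% of the 5' ends of all genes with a peak. Of the 41, 9 had a ratio under 0.3, a share that was not counted over all genes. These were all 5 of Ppargc1a, from 0.111 to 0.281, the outermost start of Esrrb with 0.266, Pparg-207 with 0.286, Pparg-201 with 0.170 and Rxra-205 with 0.220. In contrast, the starts of Rxra-201 and Rxra-206 reached 1.08 and 1.19, and Ppargc1b, the relative of Ppargc1a, had 0.827 and 0.846. Among the 9 starts without a peak, 1 (11.1%) had a ratio over 0.6, Esrrb-206 with 0.652. The share was 15.3% for the 5' ends of all genes without a peak.

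**Figure D4:**
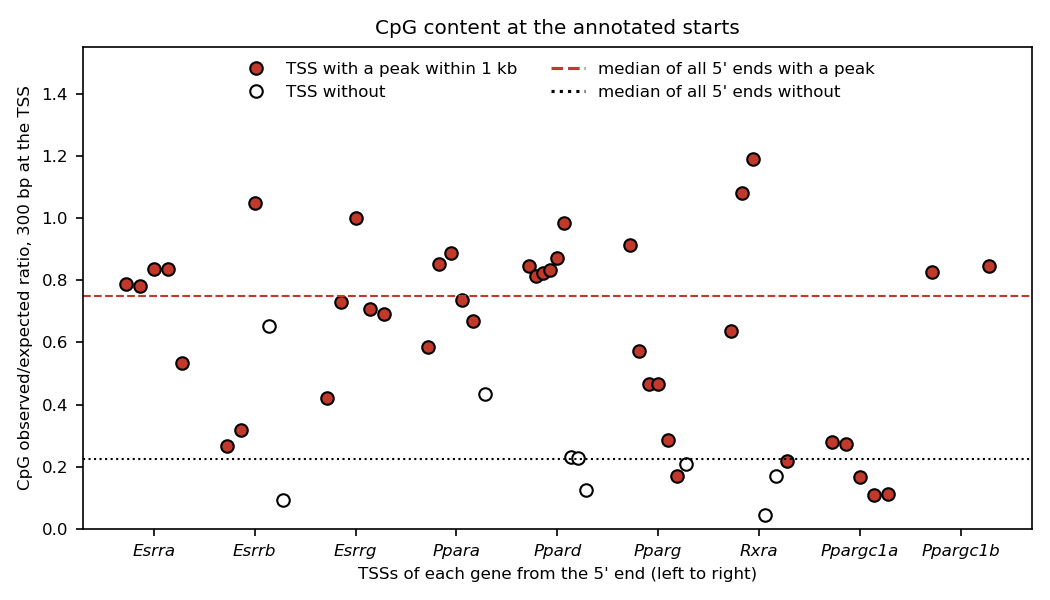
CpG observed over expected ratio of the 300 bp at each annotated TSS (250 before to 50 after), by gene and in order from the 5' end, filled where a peak lies within 1 kb, with dashed and dotted lines at the medians of all 5' ends with (0.751) and without (0.226) a peak. All 5 starts of Ppargc1a are filled and lie under 0.3.

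Further letters were searched on both strands of the 500 bp around the summits. The half-site AGGTCA, which the longer element contains, stood in 67 of the 188 peaks (35.6%, interval 28.8 to 42.9), beside 30% of all peaks. By gene its share was highest in Esrrg, 9 of 14 peaks, and Ppara, 14 of 23, and lowest in Ppargc1a, 4 of 29. These genes were picked out after their values were seen. Direct repeats with a single base between, bound by lipid-activated receptors with Rxra, were searched with any base for the T of each half-site. They stood in 2 of the 188 peaks (1.06%), beside 0.89%, and need not hold AGGTCA. The MEF2 letters, with any base in the core, stood in 23 (12.2%, interval 7.92 to 17.8), beside 8.75%. AGATAA, as above, stood in 21.8% beside 21.3%, GGAATG, bound by TEAD factors, in 25% beside 25.2%, TGANTCA, bound by AP-1, in 13.3% beside 14.6%, and the GC box GGGCGG in 19.7% beside 24.6%. The E-box CACGTG stood in 10.1% beside 7.87%, TGACGTCA in 1 peak (0.532%) beside 1.03%, and the NRF1 consensus in 1 peak beside 0.438%. That TGACGTCA match was in an intron peak of Ppara. The copy shown before the inner starts of Ppargc1a lay outside the 500 bp around the summit of its peak, so it is not counted here. The shares over all peaks lay inside the binomial intervals of the 188 for all 11 searched motifs. These shares pool the peak classes, and distal peaks were a larger part of the 188 than of the whole list. Among distal peaks the GC box stood in 9.42% beside 9.55% and MEF2 in 12.3% beside 10.2%. Among peaks at a TSS the GC box stood in 51.2% beside 55.0% and MEF2 in 14.6% (interval 5.57 to 29.2) beside 5.95%. Matches are descriptions of letters, not of binding.

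**Figure D5:**
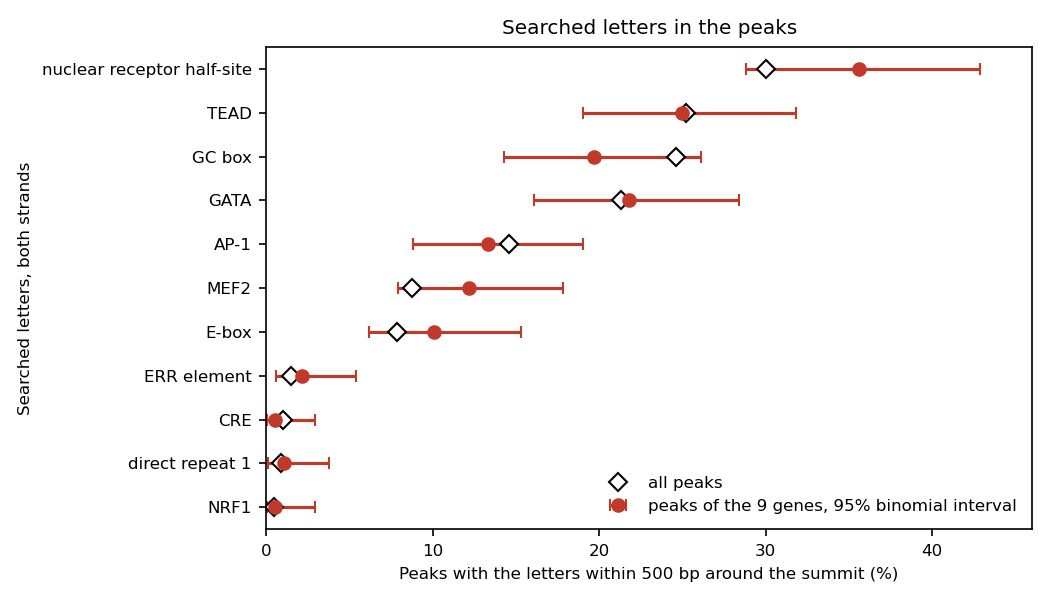
Share of peaks in percent with each searched motif on either strand within 500 bp around the summit, for the 188 peaks of the 9 genes with 95% exact binomial intervals (counting only) and for all 63061 peaks (open diamonds). Every diamond lies inside the interval of the 9 genes.

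Genes that work with these regulators were read in the same way. Of 28 coregulators and partner factors, all 28 had a promoter peak, beside 56.8% of all genes, and their median acetylated length was 8.17 kb beside 4.32 kb. Long examples were Ncoa3 with 34.4 kb, a coactivator of nuclear receptors, Lpin1 with 23.7 kb, a phosphatidic acid phosphatase that acts with Ppargc1a, and Gabpa with 22.9 kb, a factor for mitochondrial genes. Of 39 textbook targets of the receptors, 38 had a promoter peak, with a median of 12.6 kb. Long examples were the fatty acid transporter Cd36 with 64.5 kb, lipoprotein lipase Lpl with 29.8 kb and the beta-oxidation enzyme Hadhb with 25.6 kb, and the fat cell hormone Adipoq had no promoter peak. The median of the 9 regulators, 22.3 kb, was above those of both lists. Gene length was not matched between them, and long genes have long windows.

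The labelled tissue was checked against markers. Promoter peaks stood at 6 of 6 heart muscle markers, 4 of 4 of endothelium, 4 of 4 of fibroblasts and 3 of 4 of smooth muscle and pericytes, where Myh11 lacked one. They stood at 0 of 4 markers each of macrophages, liver and neurons, beside 56.8% of all genes. The windows of the macrophage markers had a median acetylated length of 5.88 kb (0 to 17.3 kb), beside 4.32 kb over all genes. The median was 0.855 kb (0 to 11.3 kb) for liver and 0.291 kb (0 to 3.4 kb) for neurons. The lists of replicates 1 and 2 held 55831 and 61333 peaks over 54.4 and 81.1 Mb, and no list holds a value per library.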

How the data were processed

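H3K27ac chromatin immunoprecipitation was sequenced in 4 heart libraries, and 4 peak lists were used: 1 replicated list, 1 pooled list, and 1 list for each of 2 biological replicates, matched to their alignments through the deposited text files. Technical replicates had been joined before. The deposited lists give the authors' display score (not used), the authors' fold ratio (taken as enrichment over a control, after the column order of this format) and the authors' −log10 p and −log10 q. In the replicated list 1332 peaks had q above 0.05. No aligner, peak caller or version is given in the sources used here, and depth is unknown. The mm10 build, per the labels, is that of C57BL/6J, and how CAST/EiJ variants bear on the peaks was not tested.

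Genes and TSSs came from GENCODE M21 and sequence from the RefSeq copy of GRCm38.p6, and every peak end lay inside its chromosome lengths. Python 3.11.15, pandas 2.3.3, numpy 2.4.6 and scipy 1.17.1 were used. Peaks of 2 lists were counted as shared from an overlap of 1 bp. With 1 group and 1 list per replicate, no test was made, and counts stand beside the same over all genes or peaks. Interval and motif functions were tested on simulated data. The members, lists, motifs and alternatives were chosen with earlier results of these data known. Named genes are the 9 members, neighbours with a TSS at a member's peak, and of each pathway list the 4 with the longest acetylated length and any without a promoter peak. Not every gene so selected is reported here. Outside this rule, the adipocyte markers and the smooth muscle marker Myh11 are named from the marker lists, and Catsperz because its exon bounds a printed sequence, all chosen after their values were seen. Alternatives were other windows, distances, thresholds, lists, overlaps and motif windows.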

Additional observations from a re-analysis of the deposited data

How the results depend on the processing

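All 9 genes kept their promoter peak under each of the 9 alternatives tried, which were a peak over the TSS itself, 2.5 kb, the 5' end alone, starts of protein_coding transcripts, stronger peaks (fold of at least 4.55), q at or under 0.01, the pooled list and each replicate's list alone. The 2.5 kb alternative could only add peaks, and the 5' end alone repeats the result given above, so neither could lower the count. The number of TSSs with a peak ran from 34, where the peak had to cover the start, to 42. The median acetylated length became 29.9 kb with 100 kb to either side and 13.7 kb over the gene alone. The number of peaks fell to 96 when only peaks of at least the list's median fold counted. The share of peaks in both replicate lists was 48.4% when 50% reciprocal overlap was required. In the list of a single replicate, TSSs with a peak numbered 40 to 42, genes with a promoter peak were 9 in either, the median length was 18.1 to 26.8 kb, and peaks numbered 183 to 189. With 300 bp around the summit, 6 motif shares came out below the interval of the 500 bp value, among them the half-site with 22.9% and MEF2 with 7.45%. No paired analysis was possible because there is a single group. Depth is unknown, so an absent peak is not a measured absence of the mark.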
